A study of Mus musculus with 2 samples.

Results

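Long intergenic non-coding RNAs (lincRNAs) are transcripts that code for no protein and lie between protein-coding genes. The DNase I hypersensitive sites (DHSs) at their promoters were examined here in mouse cortex. Members were the DHSs, called as peaks by the authors, that overlapped the window of 1 kb on either side of the most 5′ transcription start site (TSS) of a lincRNA gene of GENCODE M21. Only autosomal lincRNAs whose TSS lay more than 5 kb from any protein-coding TSS were taken. Of 5854 annotated lincRNA genes 5209 were autosomal, 704 of these lay too close to a coding TSS, and 4505 remained. Their promoters held 1071 of 90059 DHSs in replicate 1 and 1829 of 175597 in replicate 2.

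lincRNAs are transcribed by the polymerase that also makes messenger RNAs, but their promoters tend to contain fewer CpG dinucleotides, and their RNAs tend to be made in fewer tissues. CpG-rich promoters, in which the dinucleotide has been kept at high density, tend to be open in most cell types. Cortical lincRNAs include abundant nuclear RNAs such as those of Malat1 and Neat1, and host transcripts from which the neuronal microRNAs are cut.

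The series holds 2 DNase-seq libraries, in which accessible DNA is cut by DNase I and sequenced. Each came from left cerebral cortex tissue of a female B6CASTF1/J mouse, a hybrid of B6 and CAST parents, aged 14 days. The labels name no treatment, give the mice separate animal numbers under 1 donor record, and put both in the only group. No comparison between conditions and no test over samples was therefore possible. Values are given for both libraries or as a mean ± SD (n = 2), and intervals are 95% Wilson intervals, which cover counting error only. Whole tissue was used, so a site open in few cells and a site weakly open in many cannot be told apart. All 6 cortical marker genes examined, among them Emx1, Tbr1 and Neurod6, had a promoter DHS in both libraries at any of their annotated starts. At their most 5′ start, a narrower criterion, 58.8% of all coding genes did, so this is not a like comparison.

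The DNA under the strongest and the best known of these DHSs is shown first, because the results below turn on its CpG content, its footprints and its distance from the annotated start. Each line gives up to 200 bases common to the DHS of both libraries, from the mm10 (GRCm38) reference sequence and 5′ to 3′ on the strand of the gene. Capitals mark bases inside a footprint, a short stretch called as protected from DNase I, in both libraries.
Gm15408 (chr5:149006811-149007010, plus strand): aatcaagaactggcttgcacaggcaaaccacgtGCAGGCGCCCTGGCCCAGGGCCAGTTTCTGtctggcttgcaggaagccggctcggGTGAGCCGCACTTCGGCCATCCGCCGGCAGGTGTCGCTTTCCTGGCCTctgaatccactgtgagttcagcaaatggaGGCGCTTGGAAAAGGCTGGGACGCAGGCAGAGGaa
Tmem250-ps (chr2:26140401-26140600, minus strand): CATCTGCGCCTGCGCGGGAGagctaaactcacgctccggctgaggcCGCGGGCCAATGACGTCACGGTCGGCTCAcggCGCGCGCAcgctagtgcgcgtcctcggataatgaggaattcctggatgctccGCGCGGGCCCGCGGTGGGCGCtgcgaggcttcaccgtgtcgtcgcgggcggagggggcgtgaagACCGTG
Malat1 (chr19:5803571-5803770, minus strand): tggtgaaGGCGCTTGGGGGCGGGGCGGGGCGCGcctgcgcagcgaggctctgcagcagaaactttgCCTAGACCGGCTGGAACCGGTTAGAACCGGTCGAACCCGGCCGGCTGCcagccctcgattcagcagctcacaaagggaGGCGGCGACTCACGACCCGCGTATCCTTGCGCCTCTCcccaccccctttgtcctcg
1700020I14Rik (chr2:119594141-119594340, plus strand): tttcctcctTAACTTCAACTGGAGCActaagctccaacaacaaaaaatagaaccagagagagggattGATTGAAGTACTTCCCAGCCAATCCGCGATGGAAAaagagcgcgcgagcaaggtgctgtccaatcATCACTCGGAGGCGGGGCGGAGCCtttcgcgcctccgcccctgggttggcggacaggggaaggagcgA
Neat1 (chr19:5845801-5846000, minus strand): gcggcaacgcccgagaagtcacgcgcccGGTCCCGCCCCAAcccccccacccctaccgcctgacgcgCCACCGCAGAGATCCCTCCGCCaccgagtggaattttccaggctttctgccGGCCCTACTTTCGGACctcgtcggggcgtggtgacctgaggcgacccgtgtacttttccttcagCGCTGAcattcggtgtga
C130071C03Rik (chr13:83721121-83721309, plus strand): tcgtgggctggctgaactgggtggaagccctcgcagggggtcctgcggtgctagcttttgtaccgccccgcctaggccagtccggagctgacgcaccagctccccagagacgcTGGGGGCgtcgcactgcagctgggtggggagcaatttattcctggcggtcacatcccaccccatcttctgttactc
Meg3 (chr12:109540801-109541000, plus strand): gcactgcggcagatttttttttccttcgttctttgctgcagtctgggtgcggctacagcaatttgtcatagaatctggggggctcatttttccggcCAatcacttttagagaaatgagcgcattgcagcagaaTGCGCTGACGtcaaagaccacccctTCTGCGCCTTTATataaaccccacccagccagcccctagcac
Miat (chr5:112228759-112228958, minus strand): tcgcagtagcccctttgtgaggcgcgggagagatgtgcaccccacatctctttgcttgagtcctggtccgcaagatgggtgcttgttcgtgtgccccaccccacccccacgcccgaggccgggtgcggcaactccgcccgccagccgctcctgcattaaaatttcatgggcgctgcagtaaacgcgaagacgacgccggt
Mir124-2hg (chr3:17789873-17790043, plus strand): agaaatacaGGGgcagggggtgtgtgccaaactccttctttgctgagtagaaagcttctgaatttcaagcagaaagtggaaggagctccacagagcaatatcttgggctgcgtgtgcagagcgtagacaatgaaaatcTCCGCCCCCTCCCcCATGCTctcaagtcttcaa

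These sequences differ in how much of them was protected and in the motifs they hold. Gm15408 and Malat1 each had 111 of 200 bases inside footprints of both libraries, and Miat had 0. In Tmem250-ps, whose core holds 32 CpG sites, a footprint covered the whole cyclic AMP response element (CRE) TGACGTCA, the site of CREB proteins, and another covered an E-box of the type bound by NEUROD factors. GC boxes (GGGCGG, bound by SP and KLF factors) lay inside footprints of both libraries in Malat1, 1700020I14Rik, Neat1 and Mir124-2hg. GC boxes outside such footprints lay in Tmem250-ps, C130071C03Rik, Miat and, as a further match, 1700020I14Rik. The Meg3 core, which ends at the base before the start, holds a CRE that a footprint covers in part. A TATA box (TATAAA) lies in the same core between 40 and 20 bases before the start. A motif match describes the letters, and binding was not measured.

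lincRNA promoters were accessible far less often than coding promoters. In replicate 1, 819 of the 4505 lincRNAs had a promoter DHS (18.2%), and in replicate 2, 1313 did (29.1%). A DHS was present in both libraries for 793 (17.6%, interval 16.5 to 18.7%), in replicate 1 only for 26, in replicate 2 only for 520 and in neither for 3166 (70.3%). When each library kept the same number of highest peaks, 819 and 829 lincRNAs had a DHS, 662 in both, 157 in replicate 1 only and 167 in replicate 2 only. Over all 51229 autosomal genes of any type the shares were 33.3%, 38.3% and, in both libraries, 32.4%. Over all coding genes 58.8% were called in both. The closest comparison is with 16054 isolated coding genes, which lie more than 5 kb from the TSS of any other coding gene. Of these, 55.2% had a promoter DHS in replicate 1, 59.0% in replicate 2 and 53.9% in both. Against those isolated coding genes the lincRNA share differed by -37.0 percentage points in replicate 1 and -29.9 in replicate 2. The mean difference of -33.4 ± 5.01 points was larger than the spread between the libraries.

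Other non-coding classes of the same annotation lay on both sides of the lincRNAs. A DHS in both libraries was found at 35.6% of antisense RNA promoters, 47.8% of processed transcripts, 14.4% of genes that await experimental support (class TEC) and 3.22% of processed pseudogenes. No minimum distance to a coding TSS was set for these classes. Without that limit the lincRNA share was 22.4% (1169 of 5209), and this is the value to set beside them. lincRNAs within 1 kb of a coding TSS, which were not members, had a DHS in both libraries in 291 of 380 cases (76.6%). Just outside the 5 kb limit, between 4 and 5 kb from a coding TSS, 20 of 79 lincRNAs were accessible (25.3%). Just inside it, between 5 and 6 kb, the count was 10 of 57 (17.5%).

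lincRNA promoters of higher CpG content were open more often, but open promoters and the others overlapped widely in CpG content. Over the 4505 lincRNAs the ratio of observed to expected CpG sites within 500 bp of the TSS had a median of 0.298 at promoters accessible in both libraries and 0.203 at the others. Of lincRNAs with a ratio under 0.2, 8.73% were accessible in both libraries (174 of 1993). The share was 19.4% between 0.2 and 0.4 (374 of 1925) and 35.1% between 0.4 and 0.6 (158 of 450). It was 58.8% between 0.6 and 0.8 (60 of 102), and 77.1% at 0.8 or more (27 of 35). Isolated coding promoters rose from 4.90% through 25.5%, 68.2% and 87.4% to 94.4% over the same ranges. In each range from 0.2 upward fewer lincRNA than coding promoters were open, and the gap was widest between 0.4 and 0.6. Under 0.2 the order was the other way in both libraries, with 9.13% of lincRNA and 5.48% of coding promoters open in replicate 1 and 20.2% and 10.5% in replicate 2.

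**Figure D1:**
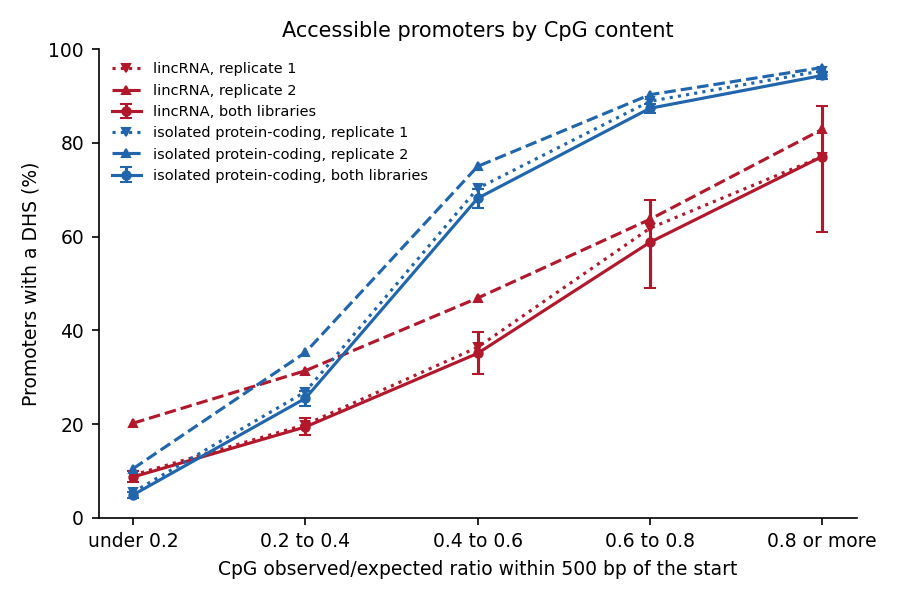
Percentage of promoters with a DHS (vertical axis) by CpG observed/expected ratio within 500 bp of the start (horizontal axis) for lincRNA (red) and isolated coding genes (blue), in each library and in both, where bars are 95% Wilson intervals. Both classes rise with CpG content, and in both libraries lincRNAs lie above coding genes in the range under 0.2 and below them in every other range.

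With CpG ranges weighted as in the lincRNAs, the net gap to coding genes was smaller. The isolated coding shares of each library in the ranges above were weighted by the numbers of lincRNAs in them. This gave 23.7% open in replicate 1 and 30% in replicate 2. The lincRNAs then differed by -5.50 and -0.855 percentage points, a mean of -3.18 ± 3.28, which was no larger than the spread between the libraries. For a DHS in both libraries the weighted coding share was 22.6%, and the lincRNAs differed from it by -4.97 points. This small net difference adds ranges in which the classes differ in opposite directions. The range under 0.2, where lincRNAs were open more often, holds 1993 of the 4505 lincRNAs. Between 0.4 and 0.6, 35.1% of lincRNA and 68.2% of coding promoters were open in both libraries. Repeated sequence was not held equal, and the cause of the gap was not tested.

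CpG-rich promoters, with a ratio of at least 0.6 and a GC content of at least 50%, were rare among lincRNAs. They made up 107 of 4505 lincRNAs (2.38%) and 6713 of 16054 isolated coding genes (41.8%). Of these 107, 77 had a DHS in both libraries (72.0%, interval 62.8 to 79.6%), against 90.8% of the CpG-rich coding promoters. Of the other 4398 lincRNAs 716 were accessible (16.3%), against 27.4% of coding genes. The CpG-rich group therefore formed 9.71% of the lincRNA promoters accessible in both libraries, and 70.4% of the coding ones. When open, CpG-rich lincRNA promoters had a median signal of 2.77 in replicate 1 and 2.18 in replicate 2, close to 2.74 and 2.24 at coding genes. Signal is the authors' height of a peak, a value with no stated unit that is scaled separately in each library. lincRNA promoters that were not CpG-rich reached medians of 0.774 and 0.560, below the 1.18 and 0.871 of coding ones.

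A DHS was lacking in both libraries at 24 CpG-rich lincRNA promoters (22.4%), against 5.59% of CpG-rich isolated coding promoters. These 24 were looked at after their values were known. In 6 of them over 50% of the bases of the 2 kb window start a stretch of 31 bases (31-mer) found elsewhere in the genome, where short reads are hard to place, and in 10 under 10% do. Of these 10, 4 have a nearest coding gene whose promoter was accessible in both libraries, which was Zfp322a, Kiz, Onecut1 and Mki67. Over all 4505 lincRNAs the nearest coding promoter was accessible in both libraries for 3115, and 10 genes are too few to set against that share. For the other 6 of the 10 the nearest coding gene was Tfap2a, Hoxd3, Foxa2, 4930447C04Rik, Smug1 and Gm4881. The closest was 4930447C04Rik, 5033 bp from Gm26709, followed by Foxa2, a factor of endoderm and the ventral midline, 5261 bp from 9030622O22Rik. Hoxd3, a homeobox gene of the trunk, lies 6962 bp from Gm14424.

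Repeated sequence went with fewer DHSs at all lincRNA promoters. Where under 10% of the window was repeated 31-mers, 20.5% of lincRNAs were accessible in both libraries, against 9.72% at 10 to 50% and 6.14% above 50%. Isolated coding promoters gave 62.0%, 29.4% and 7.34%. By the soft-masking of the reference, which marks interspersed repeats, 21.5% of lincRNA promoters with under 25% masked bases were open, 12.2% with 25 to 50%, 4.92% with 50 to 75% and 1 of 165 (0.606%) above that. The part of read placement in these shares was not tested.

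lincRNA promoters more than 200 kb from coding genes were open less often than those at 20 to 50 kb, while neighbouring distance ranges had overlapping intervals. Accessible in both libraries were 20.9% of those 5 to 10 kb from a coding TSS, 19.4% at 10 to 20 kb, 21% at 20 to 50 kb (interval 18.5 to 23.7%), 16.8% at 50 to 200 kb and 13.8% beyond that (11.8 to 16.0%). Where the start of a non-coding gene of another type lay within 1 kb, 28.9% of 159 lincRNAs were open (22.4 to 36.4%), against 17.2% of the others (16.1 to 18.3%). Isolated coding promoters ran the other way, from 48.5% at 5 to 10 kb from the next coding gene to 74.9% beyond 200 kb. Whether the nearest coding promoter was itself open in both libraries made no visible difference, at 17.6% of 3115 lincRNAs where it was and 17.7% of 1390 where it was not. Orientation gave 17.6% on the same strand as that coding gene, 16.7% for divergent and 18.8% for convergent pairs, with overlapping intervals. Genes with 1 exon (17.4%) and genes with 4 or more (17.8%) differed by less than their counting intervals. lincRNAs with 1 annotated start were open in 15.4% of cases, those with 2 in 25.4% and those with 3 or more in 27.2%.

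The surroundings of open lincRNA promoters held more DHSs. Between 1 and 50 kb from the TSS on both sides, a median of 4 DHSs of replicate 1 that replicate 2 shared lay around the 793 lincRNAs open in both libraries, and 3 around the 3166 open in neither. None lay around 6.18% of the first and 15% of the second. For isolated coding genes the medians were 5 and 2, and 4.17% and 31.3% had none.

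The member DHSs stood between coding promoters and distal elements in height. Their median signal was 0.732 in replicate 1 and 0.518 in replicate 2. DHSs at isolated coding promoters had 1.00 and 0.737, and intergenic DHSs more than 5 kb from any TSS had 0.563 and 0.378. The median member ranked at percentile 53.9 of all peaks of replicate 1 and 56.4 of replicate 2, against 67.8 and 72.2 for coding promoters and 38.4 and 38.5 for distal DHSs. The order of the classes was the same in both libraries. Base composition had the same order, with a median GC content in the central 200 bases of 53.0% and 51.0% in members, 64% and 61.5% at coding promoters, and 49.0% and 46.5% at distal DHSs.

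**Figure D2:**
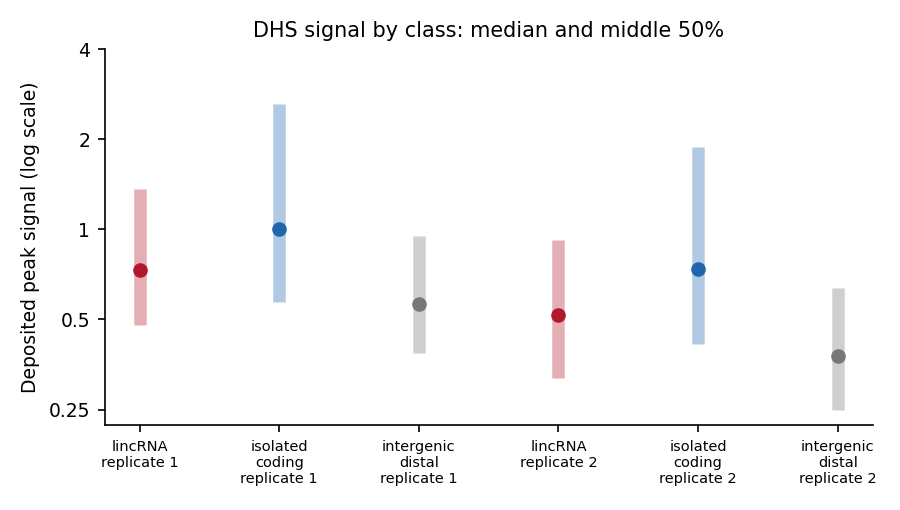
Deposited peak signal (vertical axis, log scale) of DHSs at lincRNA promoters (red), at isolated coding promoters (blue) and in distal intergenic DNA (grey) in each library; points are medians and bars span the middle 50% of peaks. In both libraries the lincRNA median (0.732 and 0.518) lies between those of the other classes.

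The upper end of the members was occupied by a few strong sites. Over the 793 lincRNAs open in both libraries the mean signal of the highest promoter DHS had a median of 0.905 and a lowest value of 0.195. It was at least 2 for 123 of them and at least 5 for 19. Of the 20 highest, 15 were CpG-rich, and these 20 were chosen by their signal. The highest was Gm42418 on chromosome 17, with signals of 38.5 and 27.0. Its DHS consists of 75.8% and 77.9% repeated 31-mers, and the start of the ribosomal RNA gene CT010467.1 lies 1243 bp from that of Gm42418.

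The next highest sites were made of sequence found once in the genome. Gm15408 on chromosome 5 reached 9.55 in replicate 1 and 9.20 in replicate 2, although its promoter is not CpG-rich. Tmem250-ps on chromosome 2, a gene named as a pseudogene but typed as a lincRNA, reached 9.58 and 7.78. Malat1 on chromosome 19, the source of an abundant RNA of nuclear speckles, reached 8.57 and 7.57, with the DHS midpoint at -999 and -1009 bp from the annotated start (negative is upstream). The start of Gm37376, a gene of class TEC, lies 731 bp from that of Malat1, so the DHS cannot be assigned to either gene. The 6720427I07Rik promoter had 7.88 and 7.99, and that of 1700096K18Rik had 7.13 and 8.17.

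The other 14 of the 20 highest had means from 4.88 (4632415L05Rik) to 6.47 (9430037G07Rik). In 9430037G07Rik, with 5.65 and 7.29, 45.7% and 43.5% of the DHS were repeated 31-mers. Gm11527 (4.94 and 7.47) has the start of another non-coding gene, 4833417C18Rik, at 309 bp, and Gm6410 (5.95 and 6.18) has that of Gm7461 at 97 bp. For 1810044D09Rik (7.54 and 4.85), whose nearest coding gene is the Wnt ligand gene Wnt7a at 29624 bp, the start of a pseudogene lies 75 bp away. Gm26812 (6.60 and 4.33) starts inside a coding gene and its DHS midpoint lies at 957 bp. Gm20732 (6.13 and 6.40) and Gm31812 (5.83 and 5.33) had nearly equal signals in both animals at the same site. In Gm36445 (5.74 and 6.06), Gm26901 (5.73 and 5.64) and Gm6410 the highest DHS was a different site in each library, so their values do not compare 1 site. B230208H11Rik had the largest ratio between the animals among the 20, with 7.03 in replicate 1 and 3.51 in replicate 2. Gm33195 (6.23 and 4.95) and D330050G23Rik (6.16 and 4.27) complete the group with 1700020I14Rik, described below.

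**Figure D3:**
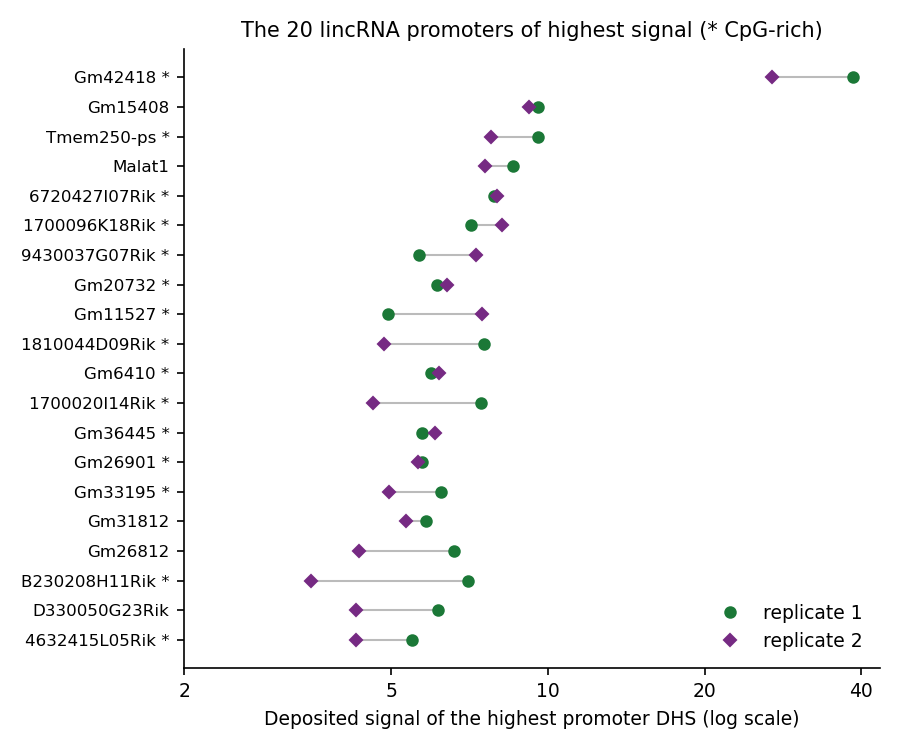
Signal of the highest promoter DHS (horizontal axis, log scale) in replicate 1 (circles) and replicate 2 (diamonds) for the 20 lincRNAs of highest mean signal; an asterisk marks a CpG-rich promoter. Gm42418 stands apart at 38.5 and 27.0, and all other values lie between 3.51 and 9.58.

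On a list of lincRNAs known from the nervous system, nearly all that met the rule were accessible. The list was chosen with earlier results of these data known, and 10 of its 23 annotated genes met the rule. Only cortex was examined, so whether these promoters are also open in other tissues was not tested. Of these 10 members, 9 had a promoter DHS in replicate 1 and 10 in replicate 2, against 18.2% and 29.1% of all 4505 lincRNAs. Their CpG content was also high, with a ratio of at least 0.4 in 8 of the 10, the ranges in which 35.1 to 77.1% of all lincRNAs were open in both libraries. The median of the mean signal over the 9 open in both libraries was 1.51, against 0.905 over all 793. Besides Malat1, the highest was 1700020I14Rik on chromosome 2, with 7.45 in replicate 1 and 4.61 in replicate 2. Neat1 on chromosome 19, whose RNA builds paraspeckles, had 3.71 and 2.76, with the DHS midpoint at -423 and -483 bp and the start of the antisense gene Frmd8os 145 bp from its own. C130071C03Rik on chromosome 13, which hosts a copy of the microRNA miR-9 and has the neuronal factor gene Mef2c as its nearest coding gene at 68493 bp, had 1.64 and 1.5.

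Meg3, also on that list, is described below with the imprinted genes. The remaining members of the list, given although the naming rule did not select them, were lower. Miat, a nuclear RNA of neurons, had 1.29 and 1.19, from a DHS downstream of the start with midpoints at 551 and 536 bp. The host genes of the neuronal microRNA miR-124 gave 1.43 and 1.60 (Mir124a-1hg) and 0.917 and 1.05 (Mir124-2hg), and Mir9-3hg gave 1.42 and 1.28. In Mir124a-1hg and Mir9-3hg the highest DHS was a different site in each library. Rmst, an RNA of neurogenesis, was the 1 member without a DHS in replicate 1, and had a weak one of 0.229 in replicate 2.

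Host genes of small RNAs overlap the previous list, which already holds Mir9-3hg, Mir124a-1hg and Mir124-2hg. Of 9 that met the rule, these 3 included, 7 had a DHS in replicate 1 and 9 in replicate 2, against 18.2% and 29.1% of all lincRNAs. Of the 9, 5 are CpG-rich, against 2.38% of all lincRNAs. The highest were Snhg12, with 3.01 and 2.38, and Snhg6, with 2.74 and 2.50, hosts of small nucleolar RNAs, which guide the chemical modification of ribosomal RNA. Mir17hg, the host of a microRNA cluster active in proliferating cells, had 2.11 and 1.58, and Snhg20, another host of a small RNA, had 1.98 and 1.06. Mir155hg, whose microRNA is known from immune cells, had no DHS in replicate 1 and 0.229 in replicate 2, although its promoter is CpG-rich. Mir670hg had a DHS in replicate 2 only, of 0.791, with its midpoint at -1059 bp, outside the window that the DHS overlaps.

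Among 3 imprinted lincRNAs, which are transcribed from 1 parental allele, only Meg3 was open in both libraries, against 17.6% of all lincRNAs, and 3 genes are too few to set against that share. It is a maternally expressed RNA of neurons and had 1.31 in replicate 1 and 1.56 in replicate 2. H19, a growth-restricting RNA of fetal tissue, had no DHS in replicate 1 and 0.388 in replicate 2. Mirg, a microRNA host of the same domain as Meg3, had none in either library. Alleles were not separated in the deposited peaks.

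Most pluripotency-associated lincRNAs lacked a DHS in either library, as most lincRNAs did. Of 19 pluripotency-associated transcripts, known from embryonic stem cells, 1 was open in replicate 1 and 4 in replicate 2, and 15 had no DHS in either (78.9%, against 70.3% of all lincRNAs), among them Platr1, Platr10, Platr11 and Platr15. The 1 open in both libraries was Lncenc1, with 0.640 and 0.563 and midpoints at 1116 and 1077 bp, at the edge of its window. Of 3 lincRNAs on a list for other tissues, Hotair of the Hoxc cluster had none in either library. Trp53cor1, an RNA induced by p53, had 0.732 and Bvht, an RNA of the cardiac lineage, had 0.976, both in replicate 2 only. Their midpoints lay at 848 bp and, outside the window that the DHS overlaps, at 1129 bp. Open in both libraries was thus 1 of the 19 pluripotency-associated transcripts (5.26%) and none of these 3, against 17.6% of all lincRNAs.

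The DHS was less well centred on the start at lincRNAs than at coding genes. The midpoint of the highest promoter DHS lay within 100 bp of the TSS for 33.2% and 28.2% of accessible lincRNAs in replicates 1 and 2, and for 57.1% and 53.3% of isolated coding genes. The median distance was 230 and 293 bp for lincRNAs and 79.0 and 88.0 bp for coding genes. At CpG-rich lincRNAs it was 98.0 and 107 bp, and at the others 268 and 313 bp. CpG-rich coding promoters had 70.0 and 78.0 bp and the other coding promoters 119 and 140 bp, so the classes lay closer together among CpG-rich promoters. More than 1 DHS in the window was found at 26.9% and 31.2% of accessible lincRNAs and at 55.1% and 61.3% of coding genes. The annotated start of many lincRNAs rests on few transcripts, and its part in the offset was not tested.

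**Figure D4:**
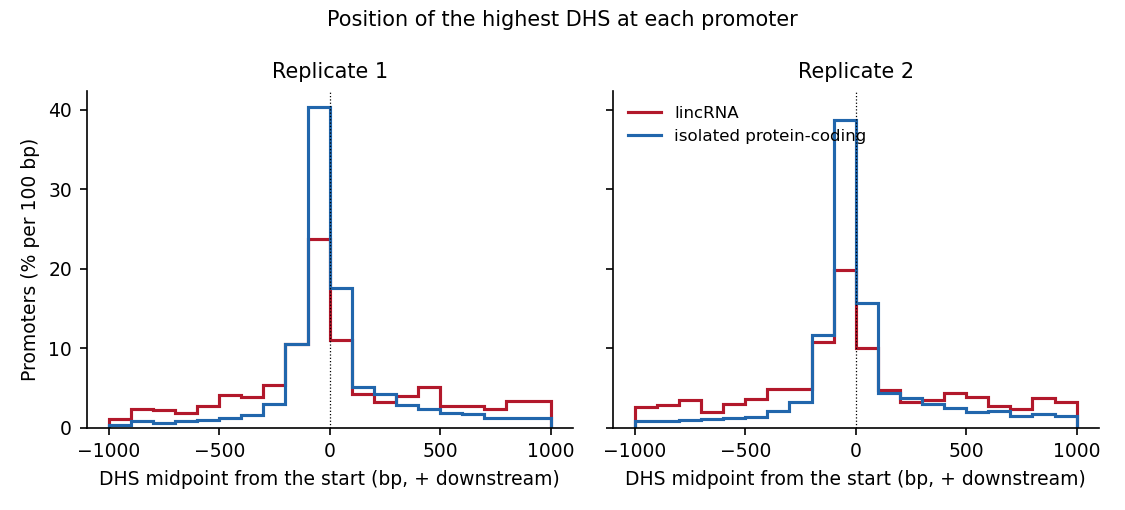
Distribution of the midpoint of the highest promoter DHS (horizontal axis, bp from the annotated start, positive downstream) as a percentage of accessible promoters per 100 bp (vertical axis) for lincRNA (red) and isolated coding genes (blue) in each library. Both peak just upstream of the start, and lincRNAs have the lower peak and the higher flanks.

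Before signal was held equal, the share of DHSs with a footprint was similar in members and in the other classes. At least 1 footprint lay in 78.3% of member DHSs of replicate 1 (interval 75.8 to 80.7%) and in 80.1% in replicate 2 (78.2 to 81.9%). Coding promoter DHSs had 78.6% and 81.0%, and distal DHSs 75.2% and 77.0%. The mean number of footprints per DHS differed more, with 2.16 and 2.37 in members. It was 2.82 and 3.06 at coding promoters and 1.68 and 1.87 in distal DHSs. The share with a footprint depended on height, from 44.5% and 46.9% in the lowest of 4 equal groups of members by signal to 98.9% and 99.3% in the highest. Averaged over the signal ranges of these 4 groups, it was 78.2% and 80.0% in members, 71.5% and 73.4% at coding promoters and 82.6% and 84.1% in distal DHSs. In the middle 2 ranges the members lay between the other classes, with 77.4% and 91.9% in replicate 1, against 62.4% and 80.0% at coding promoters and 85.6% and 97.3% in distal DHSs. In replicate 2 these ranges gave 80.8% and 92.8% in members, 66.6% and 80.6% at coding promoters and 88.3% and 97.2% in distal DHSs. In the lowest range members (44.5% and 46.9%) were no higher than coding promoters (44.5% and 47.4%), and in the highest all classes had at least 98.9%.

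For the GC box, the ETS site, the E-box, the AP-1 site and CTCF, the share of members with a match lay between those of coding promoters and distal elements in both libraries. In the central 200 bases, the GC box GGGCGG occurred in 19.4% of members in replicate 1 and 14.3% in replicate 2, against 48.4% and 42.6% of coding promoter DHSs and 6.92% and 5.01% of distal DHSs. The ETS site CCGGAAG, of a family that binds CpG-rich promoters, followed the same order with 4.01% and 2.73%, against 9.09% and 8.11%, and 1.43% and 1.03%. The E-box CAGATG of proneural factors such as NEUROD had the reverse order, with 19.4% and 20.9% of members, 8.44% and 9.96% of coding promoter DHSs and 25.2% and 25% of distal DHSs. The AP-1 site TGANTCA, bound by Fos and Jun, occurred in 8.68% and 10.1% of members, 2.96% and 3.69% of coding promoter DHSs and 10.5% and 13.0% of distal DHSs. All motifs were searched on both strands.

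CTCF, which anchors chromatin loops, gave matches that were mostly footprinted, in members as in the other classes. Its consensus occurred in 53 of 1071 members in replicate 1 (4.95%) and 54 of 1829 in replicate 2 (2.95%), against 1.16% and 1.08% of coding promoter DHSs and 8.35% and 4.08% of distal DHSs. Of these matches in members 84.9% and 88.9% lay wholly inside a footprint of the same library. At coding promoter DHSs 72.3% and 79.0% of CTCF matches did, and at distal DHSs 73.0% and 77.4%. Of NRF1 matches in members, 8 of 9 and 11 of 14 were footprinted. For the GC box in members 28.1% and 40.3% were, for CAGATG 9.48% and 7.82%, and for AP-1 2.97% and 5.53%. The site GTTGCCATG of RFX factors, regulators of ciliary and neuronal genes, was in 2.89% and 2.08% of members, above the 0.652% and 0.639% of coding promoter DHSs and the 1.88% and 1.43% of distal DHSs. The CRE, in 1.77% and 1.15% of members, and the NRF1 and EGR consensus sequences had shares between those of the other classes in both libraries. YY1 matches, in 0.187% and 0.219% of members, were below the 1.52% and 1.23% of coding promoter DHSs and the 0.376% and 0.25% of distal DHSs, and rest on 2 and 4 members. MEF2 matches, in 1.12% and 1.04%, were above the 0.258% and 0.327% of coding promoter DHSs in both libraries, and above the 0.966% of distal DHSs in replicate 1 but below their 1.26% in replicate 2. NFI matches, in 0.747% and 0.547%, were above the 0.240% and 0.206% of coding promoter DHSs, with distal DHSs at 0.821% and 0.520%.

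TATA boxes were rare. TATAAA between 40 and 20 bases before the TSS was found in 7 of 793 lincRNA promoters open in both libraries (0.883%) and in 55 of the other 3712 (1.48%). Open isolated coding promoters had it in 1.09% and the others in 4.54%. Meg3 was 1 of the 7.

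Most member DHSs of replicate 1 recurred in replicate 2, which had more peaks. A peak of the other library overlapped 91.5% of members of replicate 1 (interval 89.7 to 93.0%) and 53.8% of members of replicate 2 (51.5 to 56.1%). Coding promoter DHSs gave 86.8% and 74.8%, and distal DHSs 89.5% and 39.3%. Within replicate 2 sharing rose from 18% in the lowest of 4 equal groups of members by signal to 96.1% in the highest. Averaged over the signal ranges of such groups in each library, sharing was 91.4% and 53.7% in members. Coding promoter DHSs then gave 81.9% and 64.8%, and distal DHSs 92.6% and 50.9%, so the classes lay closer together in replicate 2. At 740 of the 793 lincRNAs open in both libraries (93.3%) the highest DHS of each library was the same site. Across these 793 promoters Pearson's r between the 2 libraries' log2 signals was 0.884 and Spearman's rho was 0.872. These promoters share both libraries and are not replicates.

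Signals at members differed between the animals by about as much as at all shared DHSs, and by more than at coding promoters. The SD of the log2 ratio of replicate 2 to replicate 1 was 0.53 over the 793 lincRNAs, 0.52 over 76271 autosomal DHSs shared by both libraries and 0.36 over isolated coding promoters. Promoter values compare the highest DHS of each library, at some genes a different site, while shared DHSs were overlapping peaks merged into 1 region. Coding promoters open in both libraries were also stronger, with medians of 2.24 and 1.89 against 0.886 and 0.901 at these lincRNAs. More than 2-fold apart were 41 lincRNAs (5.17%), against 5.03% of the shared DHSs and 1.57% of the isolated coding promoters, so the count is near the background of all DHSs. Of the 41, 16 were higher in replicate 2 and 25 in replicate 1. The shared DHSs ran the other way, with 2380 higher in replicate 2 and 1456 in replicate 1, while coding promoters gave 26 and 110. Among the upper 397 by mean signal, the largest ratios toward replicate 2 were at Gm11827 (0.493 and 1.61), Gm45092 (0.570 and 1.76), Gm807 (0.840 and 2.47), Gm41442 (0.740 and 2.19) and Gm11680 (0.586 and 1.28). Toward replicate 1 they were at Gm38584 (2.30 and 0.796), Gm33299 (1.43 and 0.622), Gm49032 (1.29 and 0.577), Gm35326 (2.34 and 1.07) and Gm41414 (2.87 and 1.32). With 1 library per animal these ratios carry no error of their own.

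**Figure D5:**
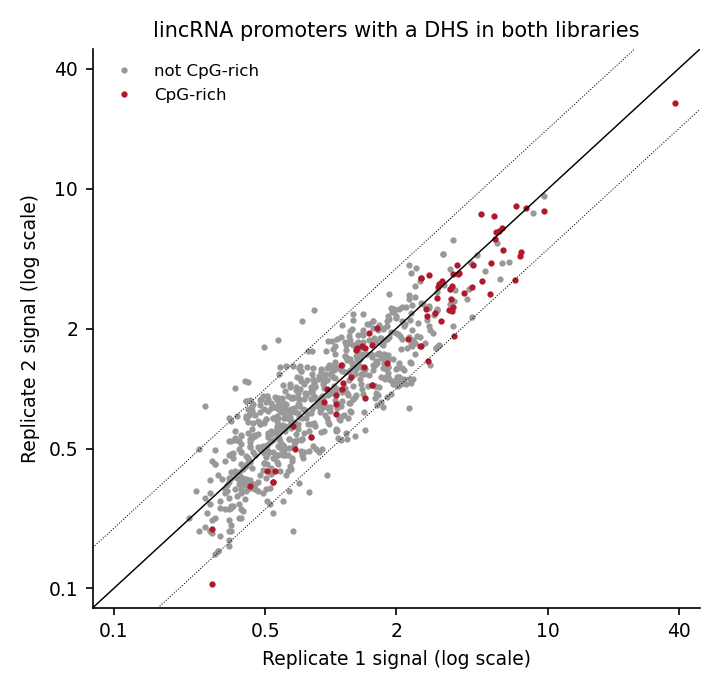
Signal of the highest promoter DHS in replicate 1 (horizontal axis) and replicate 2 (vertical axis), both on log scales, for the 793 lincRNAs open in both libraries; red points are CpG-rich promoters, the line marks equal signal and dotted lines a 2-fold difference. All but 41 points lie within the dotted lines.

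lincRNAs called in replicate 2 only were weak and CpG-poor. Their 520 promoters had a median signal of 0.348 in that library, against 0.901 at promoters open in both, and 4 of them were CpG-rich (0.769%). In replicate 1, 49 of these 520 (9.42%) overlapped a segment that the authors list with a false discovery rate of cleavage below 0.05, without a peak. The highest were 1700063D05Rik (3.06), C530044C16Rik (1.97), 4930448A20Rik (1.24), Gm45833 (1.18) and AC140413.3 (1.16). For 1700063D05Rik the midpoint lay at -1105 bp, outside the window that the DHS overlaps. The 26 lincRNAs called in replicate 1 only had a median of 0.366 and were led by Gm47070 (1.23), B020018J22Rik (0.670) and Gm35281 (0.462), and by Gm49756 and Gm49757, which share 1 DHS of 0.485. Over all lincRNAs without a peak in a library, such segments lay at 65 of 3686 (1.76%) in replicate 1 and 85 of 3192 (2.66%) in replicate 2. The 3686 include the 520 called in replicate 2 only, so the 49 are part of the 65. Of 819 isolated coding genes called in replicate 2 only, 102 (12.5%) had such a segment in replicate 1.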

How the data were processed

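DNase-seq libraries of 2 mice formed 1 group. Per the deposited notes, peaks were called by the authors separately per library, without pooling, from its alignments and a further input that is not described. Aligner and caller names were not given in the sources used here. Coordinates are on mm10, per the labels. The larger deposited peak list of each library was used. Its signal, as deposited by the authors, comes in whole multiples of a step of 0.00771 in replicate 1 and 0.00498 in replicate 2 (100% of values within 0.1 step), but the scale factor and depth are unknown. The median member held 95.0 steps in replicate 1 and 104 in replicate 2. The deposited footprints carry a constant p-value of 0.01. The authors' cleavage segments carry a false discovery rate (q-value) of at most 0.05.

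Peaks were assigned by at least 1 bp of overlap, and midpoints were used because the summit column was constant. Where a promoter held several DHSs, the highest gave its signal. Reads of CAST alleles were compared with a B6 reference, and this effect was not tested. In each library some DHSs (36 in replicate 1, 55 in replicate 2) served 2 lincRNAs. Functions were tested on simulated data. Tools were SciPy 1.17.1, Matplotlib 3.10.9, Numba 0.67.0, pandas 2.3.3, NumPy 2.4.6 and Python 3.11.15.

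Members, gene lists and motifs were chosen with earlier results of these data known. Named were the 20 lincRNAs of highest mean signal, all members of each list of up to 8 or else the 4 highest and the first 4 in the alphabet with no peak, the 5 largest ratios in each direction in the upper 50% by mean signal, and the 5 highest in 1 library only. Sequences shown are from the same rule plus further list members, and other genes named were chosen after their values were seen.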

Additional observations from a re-analysis of the deposited data

How the results depend on the processing

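The 6 summary values were recomputed under 10 settings other than leaving out a library, 1 of which (leaving out genes whose window is over 50% repeated 31-mers) was added after seeing the data. The count of 793 lincRNAs open in both libraries ranged from 535 (stricter peak list) to 1169 (no minimum distance to a coding TSS), the difference to isolated coding genes from -37.7 to -29.6 percentage points, and the share of member DHSs found in both libraries (mean 72.7%) from 71.5% to 75.7%. None of these moved beyond the limits used, a factor of 1.5 for the count and 1 SD between the libraries for the others. For sharing 1 SD was 26.7 percentage points, a limit too wide to judge its stability by. The mean of both median signals, 0.625, moved to 0.940 with the stricter peaks and 0.787 when each library kept the same number of highest peaks. The share of members with a footprint, 79.2%, moved to 89.6% and 86.7% under the same settings. The CpG-rich share, 9.71%, moved to 13.3% with the stricter peaks and 25.3% with no minimum distance. With 1 library left out, the count was 819 or 1313, the difference -37.0 or -29.9, the median signal 0.518 or 0.732, the CpG-rich share 6.17% or 9.65% and the footprint share 78.3% or 80.1%, while sharing has no value. Without replicate 1 the count was over 1.5 times higher, and replicate 2 has more peaks. With equal numbers of highest peaks the count of replicate 2 fell from 1313 to 829, and the lincRNAs called there alone from 520 to 167, while those called in replicate 1 alone rose from 26 to 157. No paired analysis was possible because there is 1 group. Depth is unknown, so a promoter without a peak was not detectably open at these depths rather than shown to be closed.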
